A study of Gallus gallus with 2 samples.

Results

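The cells described here are cerebellar cells of chick embryos at embryonic day 7 (E7), parted by whether they held transcripts of the W chromosome. Cells with 4000 or more but fewer than 10000 UMIs (counted RNA molecules) entered. A cell was called W-positive when the UMIs of UBAP2L2, HNRNPKL, SPIN1L and SMAD7B summed to 2 or more, and W-negative when it had 0 UMIs of these 4 genes. This gave 3502 of the 15190 cells of the series, 1032 of them W-positive and 2470 W-negative. The other 593 of the 4095 E7 cells in this depth range had 1 such UMI and belonged to neither group.

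The series is single-cell RNA sequencing of wild-type chick cerebellum at E6, E7, E8 and E9, made with a split-pool kit in which fixed cells receive barcodes in successive rounds of wells, and sequenced as 2 sublibraries. Dissected tissue was pooled per the labels, and neither the number nor the sex of the embryos is given in the sources used here. E7 cells went through 3 first-round wells, A4, A5 and A6, and each well held cells of both groups. Wells and sublibraries are splits of one pool of tissue, not separate embryos. The spread between wells is therefore technical, no p-value is given, and intervals are 95% intervals of counting error only.

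In birds the male carries a pair of Z chromosomes, and the female carries one Z and one W. The W holds few genes, most of them descended from the same ancestral genes as a partner on Z. Unlike mammals, birds do not silence one copy of the larger sex chromosome across its whole length, so many Z genes are expressed at a higher level in male tissue. In chicken, a stretch of Z beside DMRT1, the gene that drives testis development, holds the male hypermethylated (MHM) region, which is transcribed into non-coding RNA in females, and Z genes around it are known to be closer to equal between the sexes.

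The groups were of similar depth. W-positive cells numbered 306, 353 and 373 in wells A4, A5 and A6, against 767, 891 and 812 W-negative cells. Median UMIs per cell were 6107 in W-positive cells and 5802.5 in W-negative cells, and summed UMIs were 6675787 and 15164873. Of the barcode combinations, 896 occurred in both sublibraries, 122 of them among the cells of the 2 groups. Whether any of these mark one cell counted in both sublibraries was not tested. Doublets were not removed.

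The 4 W genes chose the cells and are given as a description. UBAP2L2 (chrW:763526-878530, GRCg7b) had 257, 236 and 261 CPM (its UMIs scaled to a common depth) in the W-positive cells of wells A4, A5 and A6. HNRNPKL (chrW:69181-88979), the W copy of an RNA-binding protein gene, had 122, 176 and 169 CPM there. SPIN1L had 53.8, 50.9 and 55.7 CPM and SMAD7B had 34.4, 35.8 and 26.8 CPM in the same wells. W-negative cells had none of these UMIs by the rule, with 3 UMIs of their total corresponding to 0.198 CPM. In the same depth range 0 of 611 E6 cells and 0 of 785 E8 cells had 2 or more of these UMIs. The exact intervals of these shares reach up to 0.602% and 0.469%, and 8 cells at each of these stages had 1 such UMI. W UMIs were thus rare at E6 and E8, although E6 and E8 W-negative cells were shallower, with medians of 4981 and 5152 UMIs.

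W-positive cells had less of their RNA from Z genes. Z genes made up 3.74%, 3.93% and 3.60% of the UMIs in W-positive cells of wells A4, A5 and A6, against 5.39%, 5.60% and 5.38% in W-negative cells. All W-positive wells lay below all W-negative wells. The mean was 3.76% ± 0.164 in W-positive and 5.46% ± 0.125 in W-negative cells (SD over 3 wells). Over all wells the W-positive share was 68.7% of the W-negative share, a log2 ratio of -0.54.

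Cells on either side of the threshold differed in the same measure. The Z share was 5.46% at 0 W UMIs, 4.32% at 1, 3.83% at 2, 3.70% at 3 and 3.71% at 4 or more. Just inside the threshold, the 431 cells with 2 W UMIs had a middle 50% of cells between 3.34% and 4.20%. Just outside it, the 593 cells with 1 W UMI ran from 3.49% to 4.95% over their middle 50%, overlapping the cells with 0 and with 2.

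**Figure D1:**
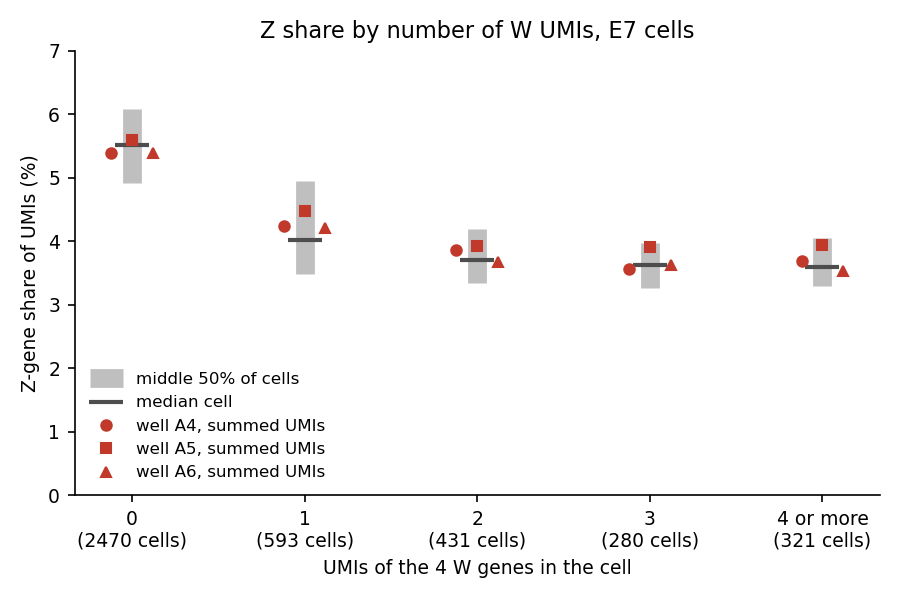
The plot gives the Z-gene share of UMIs in percent (vertical axis) for E7 cells with 0, 1, 2, 3, and 4 or more UMIs of the 4 W genes (horizontal axis); grey bars span the middle 50% of cells, dashes mark the median cell and red symbols the summed UMIs of wells A4, A5 and A6. The share is highest at 0 W UMIs (5.46% over wells), intermediate at 1 (4.32%) and near 3.7% from 3 W UMIs on.

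Gene by gene, nearly the whole Z chromosome was lower in W-positive cells. Of 666 Z genes in the gene table, 381 had 200 or more UMIs over both groups and were compared. Their median log2 ratio of W-positive over W-negative CPM was -0.58, a level of 67.1% of that in W-negative cells, with -0.54, -0.56 and -0.62 in wells A4, A5 and A6. The ratio was below 0 for 374 of the 381. A gene was called lower or higher when it passed 1.2-fold in the sum and in each of the 3 wells. By this rule 271 Z genes (71.1%) were lower and 0 were higher, against 4.97% lower and 1.56% higher over all 8952 genes compared. The 7179 autosomal genes had a median of 0.03, with 102 lower (1.42%) and 85 higher (1.18%). With one well left out, so that fewer wells had to pass, 167 to 231 were lower and 158 to 175 higher, of 6299 to 6450 compared. The medians of the 29 autosomes with 20 or more compared genes ran from -0.01 to 0.08, so no autosome came near Z. Levels of the wells did not overlap, with W-positive lower, for 82.7% of Z genes and 4.9% of autosomal genes.

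**Figure D2:**
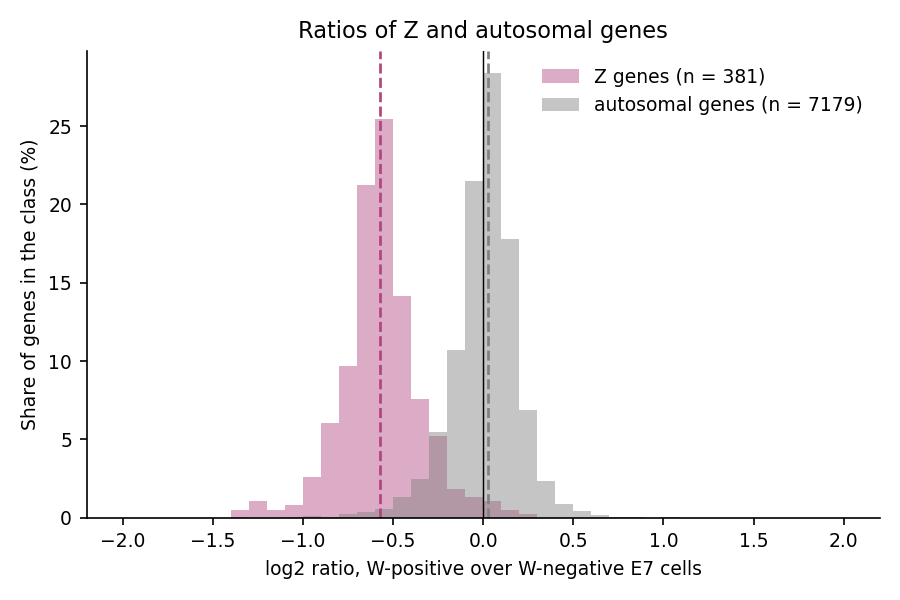
The histogram shows the log2 ratio of W-positive over W-negative E7 cells (horizontal axis) as the share of genes in each class in percent (vertical axis), for 381 Z genes in pink and 7179 autosomal genes in grey; dashed lines mark the class medians. The Z genes centre on -0.58 and the autosomal genes on 0.03, with a small overlap.

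Weakly and strongly expressed Z genes had similar ratios. Parted into equal classes by UMIs, the median was -0.54 in the class with fewest UMIs, -0.58 in the middle class and -0.58 in the class with most. The SD over genes was 0.29 among the least and 0.16 among the most expressed. With every cell thinned to 4000 UMIs before the classes were set, the median was -0.58. With cells weighted to the same cluster makeup it was -0.57.

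The Z partners of the W genes were themselves lower in W-positive cells. UBAP2 (chrZ:7806107-8033220) had 179, 158 and 163 CPM in W-positive wells A4, A5 and A6, against 243, 259 and 265 CPM in W-negative wells, a log2 ratio of -0.63 (-0.72 to -0.53). HNRNPK (chrZ:40684072-40702528), which encodes an RNA-binding protein of the nucleus, had 114, 143 and 131 CPM against 178, 199 and 211 CPM in W-negative wells, a ratio of -0.60 (-0.71 to -0.49). SPIN1 (chrZ:43790850-43866043), a reader of histone methylation, had 181, 194 and 179 CPM in W-positive wells and 278, 297 and 256 CPM in W-negative wells, a ratio of -0.59 (-0.68 to -0.49). In all 3 genes the groups did not overlap.

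SMAD7 (chrZ:1571674-1599896), an inhibitor of TGF-beta signalling, differed less. Its level was 44.1, 54.9 and 37.4 CPM in W-positive wells, against 53.9, 55.2 and 52.5 CPM in W-negative wells. The wells overlapped, the log2 ratio was -0.25 (-0.45 to -0.06) and the gene was not called. Of the 15 compared Z genes on a list of those with a W partner known in chicken, 12 were lower and 0 higher, with a median of -0.59, against 71.1% lower and a median of -0.58 over all compared Z genes. These included CHD1, a chromatin remodeller (-0.61), SMAD2, a transducer of TGF-beta signals (-0.58), VCP, an ATPase of protein quality control (-0.48), and TXNL1 (-0.90). The compared members that were not called besides SMAD7 were BTF3 (-0.41) and SUB1 (-0.33). Partner genes resemble each other, so how reads were shared between a W gene and its Z partner is uncertain.

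A set of 19 genes that the files name only by an identifier followed the W genes. They were picked after the data had been seen, from stage totals, as genes at least 20-fold higher in CPM at both E7 and E9 than at E6 and E8 combined. Stage totals hold the E7 cells too, so their ratios are a description. Summed over the set, W-positive E7 cells had 4270 CPM and W-negative cells 615 CPM. Single genes had log2 ratios from 2.60 to 3.85. ATP5A1W, a named gene with no position in the table used, had 25.6, 35.4 and 34.5 CPM in W-positive wells and 2.84, 6.51 and 3.46 CPM in W-negative wells.

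These genes showed that the W-negative group was not uniform. Among W-negative cells, 306 of 2470 (12.4%, exact interval 11.1% to 13.8%) had 10 or more UMIs of the set, as had 1007 of 1032 W-positive cells (97.6%). The Z share of those 306 W-negative cells was 3.95%, against 5.69% in the 2112 W-negative cells with 3 or fewer. Among cells with 1 W UMI, 436 had 10 or more UMIs of the set and a Z share of 3.86%, while 129 had 3 or fewer and a Z share of 5.70%. With W-negative cells limited to 3 or fewer UMIs of the set and W-positive cells to 10 or more, the median of the Z genes was -0.64, a level of 64.0%.

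Splitting all E7 cells of the depth range by this set alone left the 4 W genes free to be measured. The 1749 cells with 10 or more UMIs of the set had 168 CPM of UBAP2L2, against 5.51 CPM in the 2245 cells with 3 or fewer. HNRNPKL had 105 CPM in the first of these groups and 2.97 CPM in the second. The Z share was 3.80% in the cells with 10 or more and 5.69% in those with 3 or fewer. The median log2 ratio of Z genes was -0.62, and 316 of 393 Z genes were lower and 0 higher. Of 7420 autosomal genes compared in this split, 133 were lower and 83 higher, with a median of 0.02.

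In this split the W and Z copies of each pair were summed. UBAP2L2 plus UBAP2 came to 334, 315 and 357 CPM in cells with 10 or more UMIs of the set (wells A4, A5 and A6), against 266, 278 and 283 CPM in cells with 3 or fewer. Over all wells the sum was 121% of the level in cells with 3 or fewer, a log2 ratio of 0.27 (0.21 to 0.34), although UBAP2 alone was at -0.71. HNRNPKL plus HNRNPK was at 113% (log2 0.18, 0.11 to 0.26), and SMAD7B plus SMAD7 at 120% (log2 0.26, 0.11 to 0.41). Both of these sums were higher within each well in cells with 10 or more, although levels overlapped across wells. SPIN1L plus SPIN1 was at 74.5%, a log2 ratio of -0.42 (-0.50 to -0.35), with 214, 226 and 218 CPM in cells with 10 or more and 296, 319 and 269 CPM in those with 3 or fewer. For 3 pairs the summed level was thus not below that of cells with few UMIs of the set, and for SPIN1 it was.

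Of the other genes matched to W, HINTW and MBD2 gave few UMIs. HINTW had 2 UMIs in W-positive and 0 in W-negative cells. MBD2 has 2 entries with one symbol, of 19 and 19 UMIs in W-positive and 40 and 28 UMIs in W-negative cells. Scaled to depth, these were 2.85 against 2.64 CPM and 2.85 against 1.85 CPM, with overlapping wells. NEDD4L, a ubiquitin ligase gene that matched a W entry by its symbol, had 247, 237 and 231 CPM in W-positive wells, against 360, 337 and 351 CPM in W-negative wells. Its log2 ratio of -0.55 (-0.64 to -0.47) was close to the median of the Z genes, so its place on W by symbol is uncertain.

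Z genes with known roles in neural development or signalling were lower much as the chromosome was. Of 38 listed genes, 33 were found on Z and 27 had enough UMIs. Of these, 21 were lower and 0 higher, with a median of -0.56, against 71.1% lower and a median of -0.58 over all compared Z genes. Among transcription regulators, RORB (chrZ:37158099-37295153), a nuclear receptor of developing neurons, had 464, 449 and 513 CPM in W-positive wells and 917, 976 and 813 CPM in W-negative wells. The groups did not overlap and the log2 ratio was -0.92 (-0.98 to -0.86). NFIB, which controls the maturation of cerebellar neurons and glia, had 531, 562 and 497 CPM in W-positive wells, against 846, 845 and 777 CPM in W-negative wells, a ratio of -0.64 (-0.69 to -0.58). The Groucho co-repressor genes TLE1 (-0.56) and TLE4 (-0.67) and the homeobox gene ONECUT2 (-0.49) were also lower.

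Several listed receptors and guidance molecules were lower, though not all. SEMA6A (chrZ:73093177-73206857), a semaphorin needed for granule cell migration in mouse, had 556, 630 and 630 CPM in W-positive wells, against 1131, 1102 and 1010 CPM in W-negative wells. Its log2 ratio was -0.83 (-0.88 to -0.78), with no overlap. PTCH1 (chrZ:42380208-42445953), the receptor of Sonic hedgehog, which drives granule cell precursors to divide, had 73.8, 73.9 and 62.2 CPM in W-positive wells and 127, 136 and 125 CPM in W-negative wells, a ratio of -0.90 (-1.05 to -0.75). NTRK2, the receptor of BDNF (-0.58), PTPRD, a receptor phosphatase of synapses (-0.53), and LINGO2 (-0.80) were lower as well. The ephrin gene EFNA5 had 602, 601 and 508 CPM in W-positive wells and 679, 825 and 776 CPM in W-negative wells, a ratio of -0.43 that did not reach 1.2-fold in every well.

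Some listed members with roles in glutamate transport, the synapse or RNA control were lower. SLC1A3, the glial glutamate transporter of Bergmann glia, had a log2 ratio of -0.64, with HOMER1, a scaffold of the synapse, at -0.70, and CELF4, an RNA-binding protein of neurons and the list member with most UMIs, at -0.48. ELAVL2, a neuronal RNA-binding protein, was at -0.43. Other members called lower were CAMK4, APC, PAM, SERINC5, GNAQ and DAPK1, from -0.66 to -0.42. Those not called besides EFNA5 were MEF2C (-0.57), PCSK1 (-0.28), NR2F1 (-0.24), MAP1B (-0.15) and VLDLR (0.22).

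**Figure D3:**
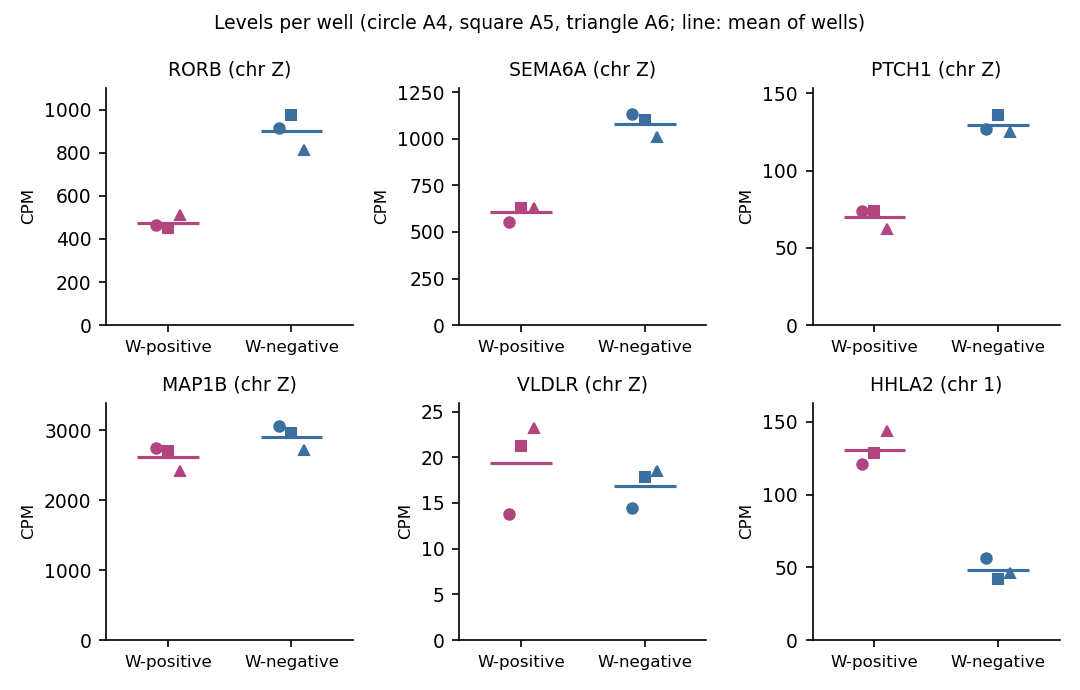
Each panel gives the level of one gene in CPM (vertical axis, from 0) in W-positive (left) and W-negative (right) E7 cells; symbols are wells A4, A5 and A6 and lines the mean of wells. RORB, SEMA6A and PTCH1 are lower in every W-positive well, MAP1B and VLDLR overlap across wells, and HHLA2, on chromosome 1, is higher in every W-positive well.

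Among Z genes with 500 or more UMIs, the 14 called genes with the largest fall ran from -1.03 to -0.87. They included ELL2, a transcription elongation factor, with 22.1, 22.6 and 19.5 CPM in W-positive wells, against 43.5, 41.8 and 45.4 CPM in W-negative wells, then WDR41, GHR, the growth hormone receptor, SMC2, a condensin subunit, FANCC, a DNA repair gene, TPGS2, CNTLN, RORB, DTWD2, TXNL1, PTCH1, FSD1L and SNX24. GHR (chrZ:13962241-14094496) had 39.0, 42.5 and 29.3 CPM in W-positive wells and 74.0, 76.4 and 72.5 CPM in W-negative wells, a log2 ratio of -1.02 (-1.23 to -0.82). Among all compared Z genes 11 had a ratio under -1. Of the 14 genes with the largest fall, all but RORB (-0.98 to -0.86) had an interval of the ratio that included -1.

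Among Z genes with 2000 or more UMIs, those nearest to equal levels were RGMB, KDM4C, UHRF2 and MAP1B. RGMB (chrZ:52012687-52028355), a co-receptor of BMP signalling, had 183, 168 and 182 CPM in W-positive wells, against 175, 171 and 188 CPM in W-negative wells, a log2 ratio of 0.00 (-0.10 to 0.10). It lay 25.6 Mb from DMRT1. KDM4C, a histone demethylase (-0.08), UHRF2, a ubiquitin ligase that binds methylated DNA (-0.09), and MAP1B, a microtubule-associated protein of growing axons (-0.15), all lay within or next to the 2 Mb on either side of DMRT1.

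Genes around DMRT1 were closer to equal between the groups than the rest of Z. DMRT1 itself (chrZ:26451248-26506925) had 3 UMIs in W-positive and 7 in W-negative cells, too few to compare. Of 49 Z genes within 2 Mb of its start, 29 were compared. Their median was -0.38 and 10 of them (34.5%) were lower, against a median of -0.58 and 74.1% lower among the 352 Z genes farther away. The medians in wells A4, A5 and A6 were -0.26, -0.29 and -0.40 near DMRT1, against -0.55, -0.57 and -0.63 farther away, so the near genes were closer to equal in each well. The 13 genes from 0 to 2 Mb on the side of higher coordinates had a median of -0.19 with 2 lower. The 16 genes on the other side had a median of -0.43 with 8 lower, and the 17 genes between 2 and 4 Mb away had -0.53 with 12 lower. Of these 17, 15 lay on the side of lower coordinates, with a median of -0.56. Only 2 lay on the side of higher coordinates, with a median of -0.31, so the end of the stretch there is not shown.

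Several genes of this stretch were nearly equal. MAP1B (chrZ:25873952-25945520) had 2745, 2702 and 2415 CPM in W-positive wells, against 3055, 2954 and 2713 CPM in W-negative wells. It was lower in W-positive cells within each well, at log2 ratios of -0.15, -0.13 and -0.17, although levels overlapped across wells, and over all wells the ratio was -0.15 (-0.18 to -0.13), short of 1.2-fold. JAK2 (chrZ:27948291-28033831), a kinase of cytokine receptors, had 53.3, 62.8 and 55.7 CPM in W-positive wells and 62.7, 57.4 and 57.5 CPM in W-negative wells, a ratio of -0.04 (-0.22 to 0.13). VLDLR (chrZ:27059520-27074222), a Reelin receptor that guides Purkinje cell migration, had 13.8, 21.2 and 23.2 CPM in W-positive wells, against 14.4, 17.9 and 18.5 CPM in W-negative wells. Its ratio of 0.22 (-0.10 to 0.53) rests on 132 and 258 UMIs, and the wells overlapped.

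Others lay between. RCL1 was at 0.07, SLC1A1, a neuronal glutamate transporter, at -0.07, SMARCA2, an ATPase of the SWI/SNF chromatin remodeller, at -0.08, and RFX3, a regulator of cilium genes, at -0.19. None of these was called. Genes of the same stretch that were called lower included FAM169A, GFM2, MED18, UTP15, FCHO2, TNPO1, CBWD1, RIC1 and KIAA2026. UTP15, the lowest of them at -0.78, had 46 and 179 UMIs.

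**Figure D4:**
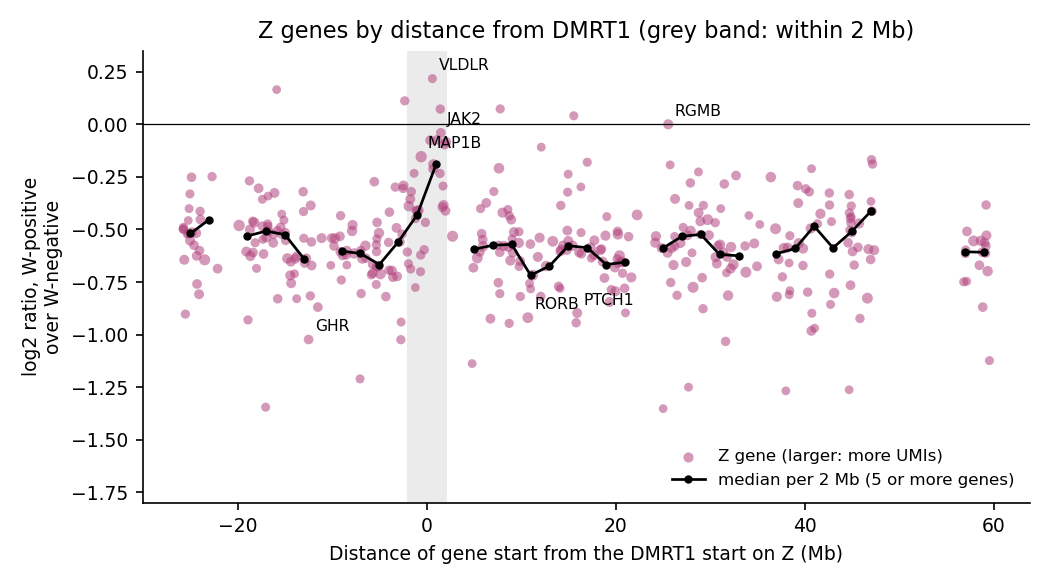
Points are the 381 compared Z genes, placed by the distance of the gene start from the DMRT1 start in Mb (horizontal axis) and their log2 ratio of W-positive over W-negative E7 cells (vertical axis), with larger points for more UMIs; the black line joins medians of 2 Mb windows with 5 or more genes, and the grey band marks 2 Mb on either side. The window just above DMRT1 has a median of -0.19, while most windows elsewhere lie between -0.4 and -0.7.

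The Z difference was present in each group of cells that could be compared. E7 cells were clustered on autosomal genes alone, which gave 25 clusters, 8 of them with 50 or more cells of each group. These 8 held 51.5% of W-positive and 48.7% of W-negative cells. The Z share in them ran from 3.41% to 4.28% in W-positive cells and from 5.11% to 6.03% in W-negative cells. Log2 ratios ran from -0.62 to -0.34 with a median of -0.57, and all 24 values of cluster and well were below 0. Clusters are given by number and leading genes.

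Cluster 3, led by the mitosis genes FOXM1, ASPM and CENPE and with 9 of 12 radial progenitor markers at least 2-fold up, had a Z share of 3.93% in W-positive and 6.03% in W-negative cells, a log2 ratio of -0.62. Cluster 1, led by CRHR2 and NCAM2, with 2 of 11 Purkinje markers (FOXP2 and RORA) and the GABA synthesis gene GAD2 2-fold up, had 3.41% and 5.11%, a ratio of -0.58. Cluster 12, with 7 of 10 markers of glutamatergic nuclear neurons 2-fold up, had 3.61% and 5.42%, a ratio of -0.59. Cluster 2, led by ROBO3 and PAX2, was at -0.53, and cluster 4, led by DLK1, at -0.60.

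Cluster 11, led by R3HDML, HES6 and BCAN, had the smallest difference. Its Z share was 4.28% in W-positive and 5.43% in W-negative cells, a log2 ratio of -0.34. Of the 8 clusters it had the most UMIs per cell, with a median of 7933, and 29.3% of its W-negative cells had 10 or more UMIs of the identifier-only set. Split by that set alone, its ratio was -0.41, while all 17 clusters that could be split this way ran from -0.67 to -0.41 with a median of -0.62. What part depth or mixed cells had in this was not tested.

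**Figure D5:**
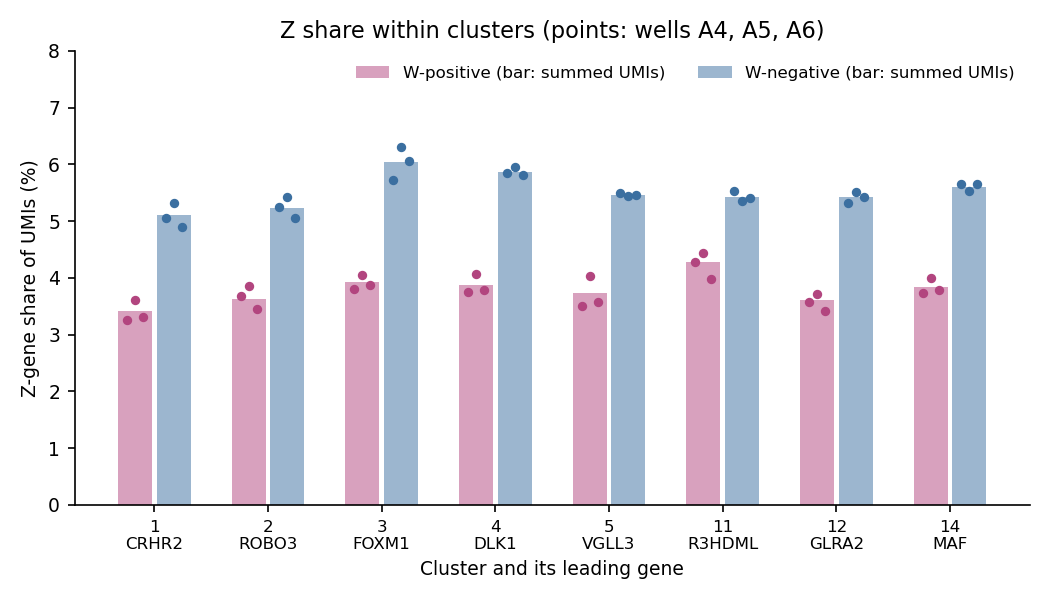
Bars give the Z-gene share of summed UMIs in percent (vertical axis, from 0) of W-positive (pink, left) and W-negative (blue, right) cells in each of the 8 clusters with 50 or more cells of both groups, named by number and leading gene; points are wells A4, A5 and A6. In every cluster the W-positive points lie below the W-negative points, and the gap is smallest in cluster 11 (4.28% against 5.43%).

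The makeup of the groups differed in some clusters. Cluster 11 held 5.91% of W-positive cells (4.55% to 7.53%), against 3.32% of W-negative cells (2.65% to 4.10%). Cluster 14, led by MAF and NTNG2 and with 5 of 10 glutamatergic nuclear markers 2-fold up, held 5.23% (3.95% to 6.77%) of W-positive and 2.996% (2.36% to 3.75%) of W-negative cells. Cluster 1 held 9.21% (7.51% to 11.1%) of W-positive and 11.98% (10.7% to 13.3%) of W-negative cells. Cluster 10, led by IGSF11 and ADGRG6, held 3.004% (2.05% to 4.24%) of W-positive and 5.02% (4.19% to 5.96%) of W-negative cells. In clusters 1 and 10 the intervals of the groups overlapped. Cluster 18, led by RXFP1 and LGR6, held 3.68% (2.62% to 5.02%) of W-positive and 1.86% (1.37% to 2.48%) of W-negative cells. Of its W-negative cells, 39.1% had 10 or more UMIs of the identifier-only set. Median UMIs per cell were 7933, 6481 and 7899 in clusters 11, 14 and 18, and 5742 and 5417 in clusters 1 and 10. The part of depth in these shares was not tested.

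Among autosomal genes with 500 or more UMIs, the largest rise was that of HHLA2 (chr1:87696608-87731926), a member of the B7 family of immune co-regulators. It had 121, 128 and 143 CPM in W-positive wells, against 56.3, 42.0 and 46.1 CPM in W-negative wells, with no overlap and a log2 ratio of 1.46 (1.32 to 1.61). It was higher in W-positive cells of all 8 clusters and at 1.47 with the same cluster makeup. LAPTM4B, a lysosomal membrane protein (0.75), and VAT1L (0.62) stayed called with the same makeup, at 0.72 and 0.52. LAPTM4B was higher in W-positive cells of 7 of the 8 clusters, and VAT1L of 5. ABI3BP, an extracellular matrix protein, was at 1.01, with 134, 69.0 and 44.7 CPM in W-positive wells and 40.0, 43.5 and 34.6 CPM in W-negative wells, so well A4 stood high. It was higher in W-positive cells of 3 of 8 clusters, with 171 CPM in W-positive and 19.9 CPM in W-negative cells of cluster 11, and was not called in the split by the identifier-only set. WDR17 (0.59) and MEIS2 (0.56), a homeobox gene of glutamatergic nuclear neurons, were at 0.33 and 0.29 with the same makeup and no longer called. In the split by the identifier-only set both were called higher, at 0.47 and 0.40. WDR17 was higher in W-positive cells of 5 of the 8 clusters, and MEIS2 of 6.

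The largest fall was that of HHIP (chr4:30422049-30498730), which binds Hedgehog ligands and limits their signal. It had 17.4, 14.2 and 7.31 CPM in W-positive wells and 30.8, 34.8 and 23.6 CPM in W-negative wells, a log2 ratio of -1.24 (-1.59 to -0.90), and -1.18 with the same makeup. It was lower in W-positive cells of 5 of 8 clusters and higher in 3, and most of its UMIs in these clusters lay in cluster 3. There HHIP had 8 UMIs in W-positive and 124 in W-negative cells, or 19.5 and 97.8 CPM. SPHKAP, an anchor of protein kinase A, was at -0.94 and at -0.89 with the same makeup, and lower in W-positive cells of all 8 clusters. SEMA3E, a secreted semaphorin, was at -0.88 and at -0.63 with the same makeup, no longer called. It was lower in W-positive cells of all 8 clusters, and was called lower in the split by the identifier-only set, at -0.65.

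The fibronectin gene FN1 (-1.09), the collagen gene COL4A2 (-1.03) and the integrin gene ITGA4 (-0.95) were also lower. Cluster 21, led by FN1 and FLT1, held 1.16% of W-positive and 2.02% of W-negative cells. The 9 endothelial markers, 1 of them a Z gene, summed to 93.0 to 158 CPM in W-positive wells and 152 to 195 CPM in W-negative wells. These wells overlapped, and SOX17 was at 0 in both groups. The 9 mural and mesenchymal markers found summed to 36.2 to 79.2 CPM in W-positive wells and 80.2 to 105 CPM in W-negative wells. The log2 ratio of the sums was -0.50 for endothelial and -0.58 for mural and mesenchymal markers, and -0.11 and -0.09 with the same makeup. With the same cluster makeup FN1 was at -0.38, COL4A2 at -0.35 and ITGA4 at -0.51, and none was called. Before this weighting FN1 was uneven between wells A4, A5 and A6, at -1.05, -0.38 and -2.20. Of the 8 compared clusters, FN1 was higher in W-positive cells in 6, COL4A2 in 5 and ITGA4 in 3, mostly on few UMIs.

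Marker lists of other cell types gave the following values. Of 10 compared Purkinje markers only SKOR2 was lower (-0.52), itself a Z gene, and the list's median was 0.00. Dividing-cell markers had a median of -0.31 with KIF11 of 7 lower, and summed to 285 to 364 CPM in W-positive wells and 377 to 435 CPM in W-negative wells, without overlap. With the same cluster makeup their median was -0.14 and 0 were called. The 5 compared glutamatergic nuclear markers had a median of 0.35, and MEIS2 and UNCX were higher. With the same makeup that median was 0.17 and 0 were called. The 13 mitochondrial genes had a median of 0.02 with 0 called. Erythroid markers summed to 3.08 to 106 CPM in W-positive and 3.49 to 19.4 CPM in W-negative wells, a log2 ratio of the sums of 2.16 with overlapping wells, and none had enough UMIs to be compared. Of the gonadal sex genes 2 were compared, and the Z gene HSD17B4 (-0.58) was lower.

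The same split could be made at E9, in cells the rule did not use. At E9, 75 of 769 cells of the depth range were W-positive and 620 W-negative. Z genes made up 3.82% of the UMIs of W-positive and 5.58% of those of W-negative E9 cells, a log2 ratio of -0.55. With 100 or more UMIs per gene, 292 Z genes had a median of -0.58, the 21 near DMRT1 had -0.25 and the 271 farther away -0.59. The pattern along Z was thus seen at both stages.

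Single genes gave a mixed picture at E9. RORB was at -1.57 (-1.88 to -1.27), SEMA6A at -0.55 (-0.67 to -0.43), CELF4 at -0.64 (-0.72 to -0.56) and MAP1B at -0.22 (-0.35 to -0.08). VLDLR, near DMRT1 and not lower at E7, was at -1.45 (-3.76 to 0.16) at E9, on 3 and 65 UMIs. HHLA2 had 7 UMIs in W-positive and 133 in W-negative E9 cells, a log2 ratio of -1.26 (-2.60 to -0.17), opposite in sign to E7. SEMA3E, lower at E7, was at 1.03 (0.52 to 1.51) at E9, and HHIP was at 0.49 (-0.20 to 1.12). LAPTM4B was at -0.06 (-1.11 to 0.85), VAT1L at -0.28 (-1.32 to 0.62) and SPHKAP at 0.28 (-0.30 to 0.82), so none of these 3 kept its E7 sign. E9 cells were also split by the identifier-only set, into 163 cells with 10 or more UMIs and 570 with 3 or fewer. In this split a gene needed 200 or more UMIs over both groups to be called. HHLA2 was there at -0.31 (-0.96 to 0.30) on 28 and 117 UMIs, too few for a call, with overlapping wells. In that split SEMA3E was at 0.87 (0.47 to 1.27) and HHIP at 0.88 (0.41 to 1.34), the wells of HHIP overlapping. LAPTM4B was there at -1.29 (-2.34 to -0.39) on 11 and 91 UMIs, and VLDLR at -1.46 (-2.83 to -0.33) on 7 and 65 UMIs. Both passed 1.2-fold in every well without overlap of wells, but had too few UMIs to be called. VAT1L, at -0.48 (-1.22 to 0.19), also had too few UMIs. SPHKAP was at 0.06 (-0.38 to 0.49) and was not called. SEMA3E was thus lower at E7 and higher at E9 in both splits, while the E9 value of HHLA2 in the W split rests on 7 UMIs. How many embryos each group came from cannot be told from the sources used here, so a difference between single embryos and one between groups with and without W cannot be told apart.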

How the data were processed

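The authors deposited one matrix of UMI counts per cell and gene for both sublibraries, with tables of cells and genes. Per the labels' protocols the Evercode WT Mini kit was used. Per the submitters' processing notes the genome build was GRCg7b, and Cell Ranger and Seurat were named without a role. How reads were counted and cells called is not stated there. Matrix sums equalled the transcript counts in the deposited cell table.

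Stage and first-round well came from the cell table, and sublibrary from the barcode. Of 30108 genes, 13499 were placed on a chromosome by matching symbols to RefSeq (GRCg7b); these took 83.3% of UMIs, and genes named only by an identifier stayed unplaced. UMIs were summed per group and well. CPM used all UMIs except those of genes matched to W, with no prior count. Genes with 200 or more UMIs over both groups were compared. Ratio intervals are exact binomial splits and shares have Clopper-Pearson intervals, both at 95%. Summed depth was 6675787 UMIs in W-positive and 15164873 in W-negative cells.

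Clusters used 2000 variable autosomal genes, 30 principal components, 15 neighbours and Leiden resolution 1 (scanpy 1.11.5, leidenalg 0.10.2). No doublet caller was run. The calculation was tested on simulated data. The W genes and their Z partners, W genes with 200 or more UMIs, the 14 Z genes with the largest fall and the 4 nearest 0, 6 autosomal genes in each direction, listed neural Z genes and genes near DMRT1 were named; a few genes that these rules pick are not reported here. The cells and lists were chosen with earlier results of these data known. Other settings for depth, gene filter, denominator, class limits, cluster makeup, fold, sublibraries and wells were tried, and 4 were added after seeing the data. No other per-sample column was used.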

Additional observations from a re-analysis of the deposited data

Results flagged for a closer look

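W transcripts and the genes that follow them were also found outside the compared E7 cells. The 19 genes named only by an identifier summed to 29.3 CPM over all cells at E6, 1976 CPM at E7, 37.5 CPM at E8 and 1000.5 CPM at E9; they were chosen from these totals for being high at E7 and E9, so the order of the sums restates the choice. W-positive cells of the depth range numbered 0 of 611 at E6 and 0 of 785 at E8, while at E9 their share was 9.75% (exact interval 7.75% to 12.1%). By the identifier-only set, 163 of 769 E9 cells (21.2%, 18.4% to 24.3%) had 10 or more UMIs. The W-positive share stands out because no E6 or E8 cell met the same rule.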

How the results depend on the processing

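The Z genes stayed lower and the stretch near DMRT1 stayed closer to equal under all settings run. Of 1320 values of the 66 called named genes under 20 alternatives, 1319 kept their direction. Part of this count was fixed in advance. The gene filters do not change a gene's ratio. Limiting W-negative cells by W-matched genes other than MBD2, NEDD4L and SKA1 left the same 1032 and 2470 cells. Leaving out a well could hardly reverse genes that had to pass in every well. The 1 reversed value was that of ELAVL2, at 0.021 with W-negative cells limited to 0 UMIs of any gene matched to W. That setting leaves 426 W-negative cells because NEDD4L counts there. Under that setting the median of Z genes was -0.51, the Z share ratio -0.47 and the near-DMRT1 median -0.30. Of 275 Z genes compared there, 148 were lower and 1 higher. Calling W-positive from 1 UMI gave -0.49 and -0.47 for the median and the share ratio and a median log2 ratio of autosomal genes of 0.0200; from 3 UMIs the autosomal median was 0.0338. With genes kept from 1 UMI in each group on, 2 of 558 Z genes were higher. Of 11217 autosomal genes, 373 were lower and 254 higher, and the near-DMRT1 median was -0.31. With 1000 UMIs per gene, 171 of 202 Z genes were lower. Of 3443 autosomal genes, 24 were lower and 17 higher, and the autosomal median was 0.0348. The autosomal median was -0.00232 with autosomal UMIs as denominator, and 0 by construction when centred. Cells of 7000 or more UMIs gave an autosomal median of 0.0308, 163 of 295 Z genes lower and 50 of 5165 autosomal genes higher. A fold of 1.5 left 64 of 381 Z genes lower, and 10 of 7179 autosomal genes lower and 3 higher. Asking for 1.2-fold in the sum alone gave 483 and 403 of the 7179 autosomal genes. With the same cluster makeup 59 of 7179 autosomal genes were lower. Splits that used the identifier-only genes, added after seeing the data, gave medians of -0.64, -0.62 and -0.63 and share ratios of -0.61, -0.58 and -0.59 for the strict split, the split by these genes alone and that split with the same makeup. The split by these genes alone had an autosomal median of 0.0202. Leaving out a sublibrary or a well, the Z median ran from -0.60 to -0.54 and the share ratio from -0.57 to -0.52. The near-DMRT1 median ran from -0.39 to -0.31 and the autosomal median from 0.0251 to 0.0337. Z genes lower ran from 189 to 275, with 310 to 341 compared. Autosomal genes lower ran from 79 to 231 and higher from 67 to 175, with 5626 to 6450 compared. The autosomal counts were higher when fewer wells had to pass: without well A4, A5 or A6 the lower genes numbered 195, 231 and 167 and the higher genes 158, 175 and 174. The cause of these shifts was not tested. The labels put both sublibraries in one group, and no paired test was run. Each well and each sublibrary held cells of both groups, and ratios of the 2 groups were taken within each well.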
